A study of Mus musculus with 9 samples.

Results

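The 10 genes studied here join epithelial and other cells of the uterus and were followed across 9 mouse uterus libraries: the tight junction genes Cldn1, Cldn3, Cldn4, Cldn7, Cldn10, Ocln and Tjp1, the adherens junction gene Cdh1, and the gap junction genes Gja1 and Gjb2. They were chosen by name as the tight, adherens and gap junction genes, with earlier results of these data known, and are 10 of 35934 genes. All 10 passed the filter on low values, a mean over the 9 libraries of 1 FPKM or more (fragments per kilobase of transcript, scaled to library size), as 13333 genes did in all. The level of a gene is the sum of the FPKM of its annotated transcripts.

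The animals were immature C57BL/6 females. All of them, controls included, were primed with 1 mg of progesterone in 1 dose and with β-estradiol at 10 mg/kg/day, for 3 days in all, and their uterine horns were then given 50 μl of medium. The 3 control libraries come from uteri given embryo culture medium that had held no embryo. The 3 competent libraries come from uteri given pooled medium of 9 developmentally competent human embryos, and the 3 arrested libraries from uteri given pooled medium of 18 arresting human embryos. One pool of medium stands behind each treated group, so other pools were not sampled. The labels give an age of 25 days in the protocol, and the series' design text also names 21 days. Each library was made from total RNA of a whole, flash-frozen uterus, and the labels do not say that the 3 libraries of a group are separate animals. The p-values below therefore measure the spread between these libraries, which may be technical. In such bulk RNA, fewer cells of a type and less RNA per cell cannot be told apart.

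Tight junctions seal the space between neighbouring epithelial cells. Claudins and occludin form their strands, and the zonula occludens protein of Tjp1 ties the strands to actin. Below them, E-cadherin (Cdh1) of adjacent cells binds to itself in the adherens junction and holds catenins at its tail. Connexins form gap junction channels that pass ions and small molecules from cell to cell. In the rodent uterus, the luminal epithelium is known to remodel these contacts under ovarian steroids around the time an embryo attaches.

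Depth, recovered from the widths of the authors' intervals, was 10900000 to 19800000 fragments per library. Epithelium markers were high in every library (13 of 13 genes above 0, summed level 2571 to 3690 FPKM), led by Krt19, Krt8 and Spint2. Of the genes that define the uterus, Hoxa10, Hoxa11 and Msx1 were present throughout, whereas Esr1 was listed at 0 in 8 libraries and Pgr in 6. Foxa2, also of this list, had a mean of 0.85 FPKM, below the filter, and was listed at 0 in competent library 2. Since a 0 in these files can be a failed estimate, nothing is drawn from those zeros. Single arrested libraries stood apart from the others. Arrested library 3 lay at 90.7 on the first principal component (16.6% of variance), where the other 8 lay between -25.1 and 4.9. In arrested library 2, the adipocyte markers summed to 920 FPKM, against at most 138 elsewhere, the stromal fibroblast markers were highest (2899 FPKM) and the epithelium markers lowest (2571 FPKM). Smooth muscle markers were lowest in arrested library 1 (879 FPKM, against 1188 to 2770).

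Between the 2 conditioned media, Gjb2 and Cdh1 had the smallest unadjusted p of the members by limma, though not the 2 largest differences. Gjb2 had a mean of 41.4 FPKM in the arrested group against 128 in the competent group, 0.324 of it. Cdh1 had a mean of 113 FPKM against 165, 0.688 of it. In both genes the 3 groups did not overlap in any comparison, with the competent libraries highest and the arrested libraries lowest. Of all genes, 16.5% had arrested and competent groups that did not overlap. The share of all genes whose 3 groups all stay apart was not computed, so how unusual this order is cannot be judged. In the opposite direction, Cldn10 had an arrested mean of 144 FPKM, 2.36 times the competent mean, with overlapping groups. None of these differences passed the adjusted threshold, and neither did those of the other 7 members.

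**Figure D1:**
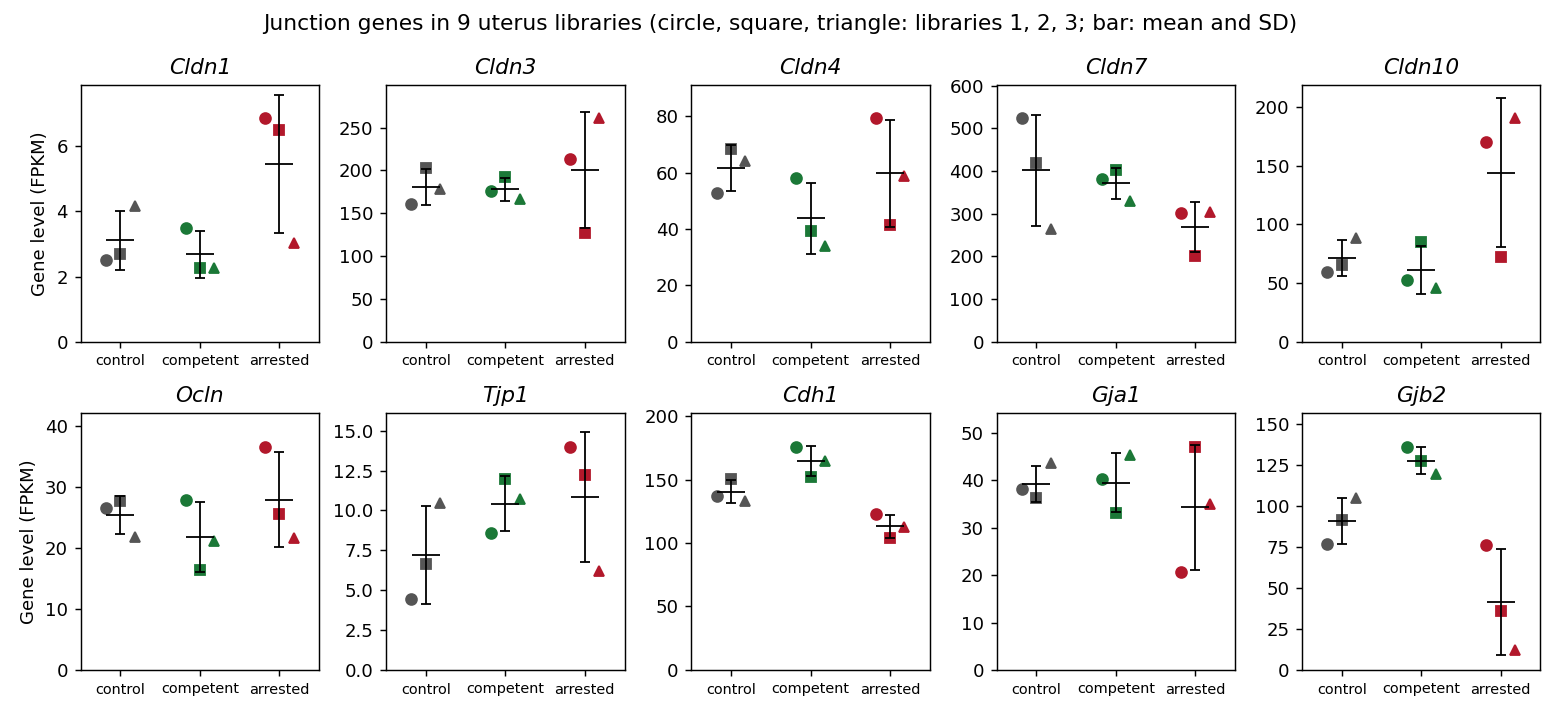
Gene level in FPKM (y axis, linear from 0, own scale per gene) of the 10 members in the control, competent and arrested libraries; each symbol is 1 library and the bar with whiskers is the mean and SD of 3. The 3 groups of Cdh1 and of Gjb2 do not overlap, and Gjb2 in the arrested group runs from 12.1 to 76.0 FPKM.

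By limma's moderated test on log2(FPKM + 1), with Benjamini-Hochberg adjustment over all 13333 genes, 0 of 10 members had an adjusted p under 0.05 in any comparison. Over all genes tested, the calls were 0.045% for competent minus control, 0.0525% for arrested minus control and 0.135% for arrested minus competent, so few genes of any kind passed. The F test of the 3 groups together called 0 members, beside 0.0975% of all genes. At an unadjusted p under 0.05, the 3 comparisons held 0, 3 and 4 members, against 5.18%, 5.27% and 10.9% of all genes. In arrested minus control these were Cldn10, higher (2.08% of all genes were), and Cdh1 and Gjb2, lower (3.19%). In arrested minus competent they were Cldn1 and Cldn10, higher (5.31%), and Cdh1 and Gjb2, lower (5.61%). Groups that did not overlap were found for 2, 2 and 3 members, beside 14.9%, 8.85% and 16.5% of all genes. They were Cdh1 and Gjb2, higher in competent minus control (6.72% of all genes) and lower in arrested minus control (5.36%), and Cdh1, Gjb2 and Cldn7, lower in arrested minus competent (8.75%). The median difference over the members was -0.04, 0.00 and 0.05 on the log2 scale, and over all genes -0.01, -0.02 and -0.01. The 2 treated groups share the control libraries in their comparisons with control, so those comparisons are not independent of each other.

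**Figure D2:**
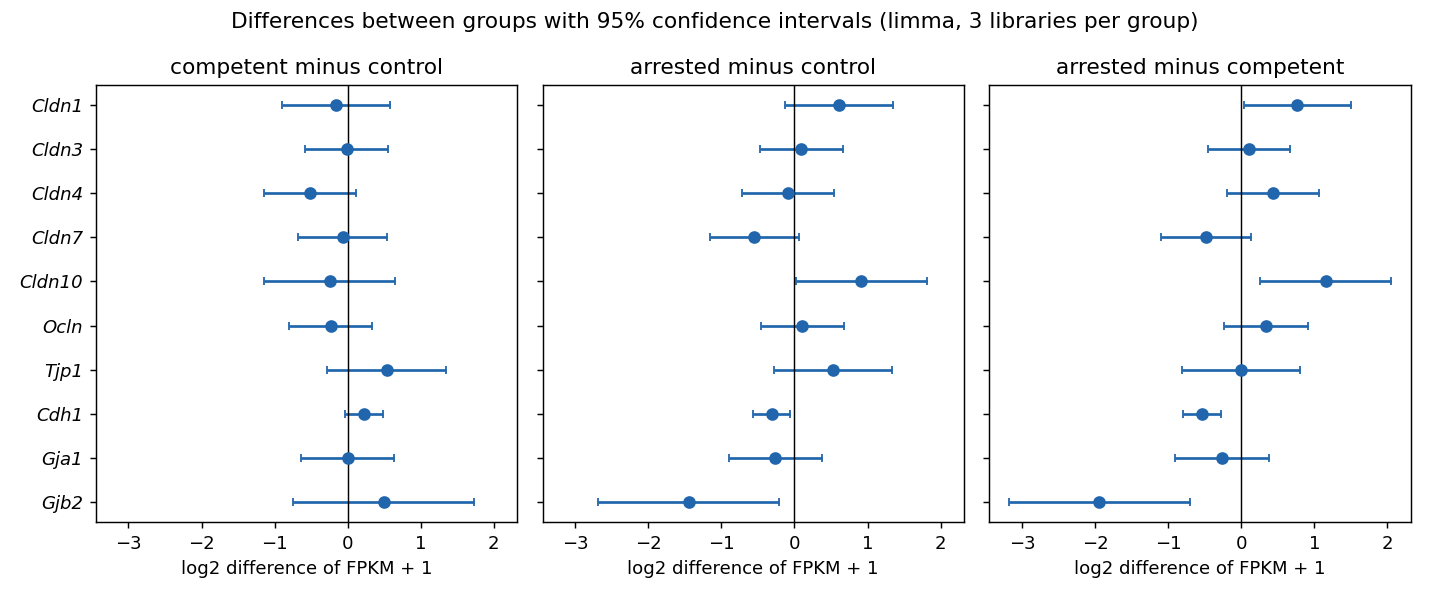
Difference between groups of each member on the log2(FPKM + 1) scale (x axis), 1 panel per comparison; points are limma estimates and bars are 95% confidence intervals from 3 libraries per group. The intervals of Gjb2 (-3.18 to -0.70) and Cdh1 (-0.79 to -0.28) lie below 0 in arrested minus competent, before adjustment over all genes.

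Gjb2 encodes connexin 26, a gap junction channel of the uterine epithelium whose level in rodents is known to change around implantation. It lies on chromosome 14 from 57717437 to 57723539 on the minus strand (NCBIM37, the build also called mm9), and its level comes from 1 annotated transcript. It measured 76.5, 91.5 and 105 FPKM in the control libraries, 136, 127 and 119 FPKM in the competent libraries, and 76.0, 36.0 and 12.1 FPKM in the arrested libraries. The competent libraries lay close together, whereas the arrested libraries spanned 6.29-fold. Arrested library 1 lay just below control library 1, and the authors' intervals of these 2 values, 73.0 to 79.0 and 73.0 to 80.1 FPKM, overlap. The lowest value, in arrested library 3, rests on 413 fragments, and the highest, in competent library 1, on 5904.

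Against competent medium, Gjb2 differed by -1.94 ± 0.54 (SE) on the log2 scale (limma, unadjusted p = 0.00684, adjusted p = 0.316). Against control, the arrested group differed by -1.45 (95% interval -2.69 to -0.21, adjusted p = 0.904 by limma) and the competent group by 0.49 (-0.75 to 1.73). Arrested library 3, which stood apart on the first principal component, carried much of this difference: without it the values were -1.27 against competent and -0.77 against control. Without arrested library 2, the one with adipocyte markers, they were -2.02 and -1.52. Taken relative to the mean of the epithelium markers, the arrested minus competent value was -1.80, and the ranges of the 3 groups still did not overlap.

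The 250 bases before the annotated start of Gjb2 and of Gja1, the other connexin among the members, are shown to set the promoters of these 2 genes side by side, since the 3 groups did not overlap in the one gene and overlapped in the other. Both were read from NCBIM37, chr14:57723540-57723789 on the minus strand for Gjb2 and chr10:56096856-56097105 on the plus strand for Gja1, and equal the RefSeq promoters. Capitals mark the GC box (GGGCGG), the AP-1 site (TGANTCA) and the GGTCA motif of estrogen response elements, searched on both strands, with no overlaps among these matches.
Gjb2: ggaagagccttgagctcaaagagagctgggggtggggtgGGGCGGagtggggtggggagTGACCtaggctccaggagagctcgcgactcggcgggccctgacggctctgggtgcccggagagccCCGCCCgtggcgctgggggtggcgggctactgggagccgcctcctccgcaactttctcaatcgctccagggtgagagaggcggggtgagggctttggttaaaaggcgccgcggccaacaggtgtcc
Gja1: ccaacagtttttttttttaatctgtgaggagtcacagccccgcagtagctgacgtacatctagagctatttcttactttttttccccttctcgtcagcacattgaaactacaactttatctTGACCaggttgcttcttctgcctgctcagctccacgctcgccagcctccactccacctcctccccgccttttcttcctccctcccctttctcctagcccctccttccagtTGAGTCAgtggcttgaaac
The Gjb2 sequence is 69.2% G and C and holds 2 GC boxes and 1 GGTCA. The Gja1 sequence is 50.0% G and C and holds no GC box, 1 AP-1 site and 1 GGTCA. Of 32851 RefSeq promoters of the same length (build GRCm38.p6), 32.7% hold a GC box, 6.75% an AP-1 site and 35.2% a GGTCA. The full palindromic estrogen response element is in 0.06% of them and in none of the 12 promoters that RefSeq lists for 9 of the 10 members. These are letter matches only.

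Gja1 encodes connexin 43, the gap junction protein of endometrial stroma and of smooth muscle (chromosome 10, 56097106 to 56110225, plus strand). It measured 38.1, 36.3 and 43.6 FPKM in the control libraries, 40.2, 33.1 and 45.3 FPKM in the competent libraries, and 20.6, 47.1 and 35.1 FPKM in the arrested libraries. The arrested group held both the lowest and the highest value, and all groups overlapped. Its lowest level, in arrested library 1, came with the lowest smooth muscle (879 FPKM), endothelium (37.3 FPKM) and, by mean log2 level, stromal markers (-0.55 against the mean of the libraries). Its highest level, in arrested library 2, came with the highest stromal (2899 FPKM) and endothelium (96.9 FPKM) markers, and their part in it was not tested. The smooth muscle markers did not follow Gja1 throughout: they were highest in competent library 2 (2770 FPKM), where Gja1 was second lowest (33.1 FPKM). The differences were 0.00 (95% interval -0.64 to 0.64) for competent minus control and -0.26 (-0.90 to 0.38) for arrested minus competent. True differences within those bounds are thus not excluded.

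The ratio of Gjb2 to Gja1, both in FPKM, showed the uneven behaviour of the 2 connexins within libraries. It was 2.01, 2.52 and 2.40 in the control libraries and 3.39, 3.84 and 2.64 in the competent libraries. In arrested libraries 1, 2 and 3 it was 3.69, 0.76 and 0.34. Gjb2 thus exceeded Gja1 in 7 of 9 libraries and lay below it in arrested libraries 2 and 3.

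Of 20 other connexins and pannexins, 11 were tested and 0 had an unadjusted p under 0.05 in any comparison by limma. Panx1, a channel of single membranes, had the highest mean (10.96 FPKM), and Gjc1 (connexin 45) had a mean of 7.77 FPKM, both far below Gjb2. Gjb6 (connexin 30), which can share channels with connexin 26, had a mean of 1.49 FPKM over the 9 libraries. Gja10 was listed at 0 in every library.

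Cdh1 encodes E-cadherin and lies on chromosome 8 from 109127251 to 109194146 on the plus strand. Its level was 137, 151 and 133 FPKM in the control libraries, 176, 152 and 165 FPKM in the competent libraries, and 123, 104 and 112 FPKM in the arrested libraries. Each group was tight and none overlapped another, although the gap between the highest control and the lowest competent library was small (150.7 and 152.4 FPKM). It had the smallest unadjusted p of the members.

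Cdh1 differed by -0.54 ± 0.11 (SE) in arrested minus competent (limma, unadjusted p = 0.00129, adjusted p = 0.233). The value was -0.31 (-0.57 to -0.06) in arrested minus control and 0.23 (-0.03 to 0.48) in competent minus control. Without arrested library 3 the arrested minus competent value was -0.53, and without arrested library 2 it was -0.48. Relative to the epithelium markers it was -0.39, and there arrested library 2 lay among the control libraries (0.12, against 0.06 to 0.20), while the competent libraries stayed above both groups.

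Cdh1 was divided among transcripts in an uneven way. The main transcript, ENSMUST00000000312 (4430 bases), gave 105, 115 and 101 FPKM in the control libraries, 124, 123 and 131 FPKM in the competent libraries, and 123, 69.4 and 112 FPKM in the arrested libraries. A shorter one, ENSMUST00000167688 (3203 bases), was listed at 0 in arrested libraries 1 and 3 and at 29.7 to 52.1 FPKM in the other 7. On the main transcript alone, the groups overlapped and arrested minus competent was -0.35 (limma, adjusted p = 0.592). Coverage summed over all exons of the gene depends less on that division. It was 124, 136 and 121 in the control libraries, 157, 140 and 151 in the competent libraries, and 119, 91.6 and 109 in the arrested libraries, in FPKM units. There the 3 groups again did not overlap, and arrested minus competent was -0.49 (limma, adjusted p = 0.155).

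Among the catenins that bind the tail of E-cadherin, Ctnnd1 (p120 catenin) measured 82.1, 82.0 and 66.0 FPKM in the control libraries, 83.3, 74.5 and 73.6 FPKM in the competent libraries, and 57.8, 63.5 and 50.5 FPKM in the arrested libraries. The arrested libraries lay below all others. It differed by -0.43 ± 0.14 (SE) in arrested minus competent (limma, unadjusted p = 0.0146, adjusted p = 0.378). Ctnna1 (α-catenin) was nearly flat, at 94.9 to 111 FPKM over the 9 libraries. Ctnnb1 (β-catenin) was the most abundant of the 3, with a mean of 270.4 FPKM, and its groups overlapped. Of 16 other adherens junction genes listed, 15 were tested. In arrested minus competent, 10 of them were lower and 5 higher in estimate, 1 had an unadjusted p under 0.05 and 0 passed the adjusted threshold by limma. In competent minus control, Cdh3 (P-cadherin) had the smallest unadjusted p of the list, with 0.75, 1.502 and 1.49 FPKM in the control and 3.63, 2.82 and 8.91 FPKM in the competent libraries. Its difference was 1.33 ± 0.59 (SE) by limma (unadjusted p = 0.0533, adjusted p = 0.944), and arrested libraries ran from 0.48 to 5.07 FPKM. The summed mesothelium markers were also highest in competent library 3 (140.6 FPKM). In competent library 2 (39.5 FPKM), however, they lay below control library 2 (66.2 FPKM). Their part in the Cdh3 difference was not tested.

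Claudin levels were compared with each other by exon coverage in FPKM units. This is per length and depends less than summed FPKM on the division among transcripts. It still builds on the coverage listed for each transcript, and it averages over all annotated exon bases. For Cldn10 these are 2628 bases, where its main transcript has 2128. Cldn3, Cldn7, Cldn4 and Cldn10 made up nearly all of the coverage of the 5 member claudins. Cldn3 held 35.9% to 43.7% of it over the 9 libraries, Cldn7 20.1% to 43.6%, Cldn10 8.27% to 25.8% and Cldn4 9.81% to 15.4%. Cldn1 stayed at or below 2.09%. In the control libraries, mean coverage was 172 for Cldn3, 146 for Cldn7, 61.8 for Cldn4, 53.8 for Cldn10 and 3.12 for Cldn1. Cldn3 and Cldn7 did not differ beyond their spread there (SD 9.29 and 48.7, n = 3), and neither did Cldn4 and Cldn10 (SD 8.10 and 17.3, n = 3).

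Cldn10 belongs to the claudins known to form paracellular ion pores, and its transcripts start at separate promoters. It lies on chromosome 14 from 119187093 to 119274711 on the plus strand. Its level was 59.5, 65.0 and 88.5 FPKM in the control libraries, 52.7, 84.5 and 45.9 FPKM in the competent libraries, and 170, 71.9 and 190 FPKM in the arrested libraries. Arrested libraries 1 and 3 lay above the other 7, and arrested library 2 lay among them. The difference was 1.16 ± 0.39 (SE) for arrested minus competent (limma, unadjusted p = 0.0178, adjusted p = 0.385) and 0.91 (95% interval 0.02 to 1.81) for arrested minus control. Without arrested library 3 these were 0.90 and 0.65, and without arrested library 2, the one low in epithelium markers, 1.59 and 1.35.

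Most of the Cldn10 signal, 81.8%, came from the downstream start. Its transcript ENSMUST00000100314 was above 0 in all 9 libraries, at 28.7 to 190 FPKM. From the start 66861 bases upstream, ENSMUST00000047761 was listed above 0 only in control library 1 (30.9 FPKM), and ENSMUST00000071546 was listed at 0 in every library. A short transcript of 578 bases, ENSMUST00000123747, had 46.5 FPKM in competent library 2 and 73.7 FPKM in arrested library 1 and was listed at 0 elsewhere. By exon coverage, Cldn10 was 37.1, 52.7 and 71.6 in the control libraries, 42.7, 41.0 and 37.2 in the competent libraries, and 94.2, 58.2 and 154 in the arrested libraries. On that scale every arrested library lay above every competent library, and the difference was 1.21 ± 0.35 (SE), with an adjusted p of 0.199 by limma. Arrested library 2 still lay below control library 3.

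The 250 bases before the upstream start of Cldn10 and before that of ENSMUST00000100314 are printed, since the deposited estimates put most of the signal on the latter. They were read from NCBIM37 on the plus strand, chr14:119186843-119187092 for the upstream start and chr14:119253704-119253953 for the downstream start, with the same motifs in capitals.
Upstream: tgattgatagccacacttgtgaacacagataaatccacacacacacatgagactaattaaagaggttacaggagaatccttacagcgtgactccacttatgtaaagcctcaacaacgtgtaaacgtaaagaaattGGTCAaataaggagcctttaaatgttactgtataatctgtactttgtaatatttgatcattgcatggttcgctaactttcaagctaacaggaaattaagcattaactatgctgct
Downstream: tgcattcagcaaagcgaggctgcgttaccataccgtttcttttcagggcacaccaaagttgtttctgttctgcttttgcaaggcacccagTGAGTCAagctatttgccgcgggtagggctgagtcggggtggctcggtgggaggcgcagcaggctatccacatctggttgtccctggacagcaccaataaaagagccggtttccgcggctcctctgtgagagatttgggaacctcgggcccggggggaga
The upstream sequence, 36.0% G and C, holds 1 GGTCA and neither of the other motifs. The downstream sequence, 57.2% G and C, holds 1 AP-1 site. No GC box stands in either window. The upstream window equals a RefSeq promoter, but the downstream one does not: the other promoter that RefSeq lists for Cldn10 holds 3 GC boxes, no AP-1 site and 1 GGTCA. The motifs of the downstream start thus depend on which annotation places it. The short transcript ENSMUST00000123747 has an annotated start of its own, whose promoter is not shown.

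Cldn3 and Cldn4, sealing claudins of simple epithelia that also bind a Clostridium toxin, lie close together on chromosome 5, on opposite strands. Cldn3 (135462084 to 135463342, plus strand) measured 161, 203 and 178 FPKM in the control libraries, 176, 192 and 166 FPKM in the competent libraries, and 213, 127 and 261 FPKM in the arrested libraries. The arrested libraries enclosed all the others. The differences were -0.02 (95% interval -0.58 to 0.55) for competent minus control and 0.11 (-0.46 to 0.67) for arrested minus competent. Cldn3 overlaps the antisense gene Wbscr25, and no source used here says that counting used strand.

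Cldn4 (135420996 to 135422804, minus strand) measured 52.7, 68.3 and 64.3 FPKM in the control libraries, 58.1, 39.3 and 33.9 FPKM in the competent libraries, and 79.3, 41.3 and 58.9 FPKM in the arrested libraries. Competent libraries 2 and 3 were the lowest of the 9. The differences were -0.52 (95% interval -1.15 to 0.12) for competent minus control and 0.43 (-0.20 to 1.06) for arrested minus competent. Both Cldn3 and Cldn4 were higher in arrested library 1 than in arrested library 2.

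Cldn7, a claudin of the basolateral as well as the apical side of epithelia, lies on chromosome 11 from 69778281 to 69781387 on the plus strand. It measured 523, 419 and 264 FPKM in the control libraries, 381, 402 and 330 FPKM in the competent libraries, and 301, 201 and 304 FPKM in the arrested libraries. The arrested libraries lay below the competent libraries, while the control libraries spread across both. Arrested minus competent was -0.48 (95% interval -1.09 to 0.13). Of this sum, 62.2% came from a processed transcript of 373 bases, ENSMUST00000151515, for which FPKM weighs each fragment heavily. By exon coverage Cldn7 was 195, 145 and 98.0 in the control libraries, 134, 152 and 122 in the competent libraries, and 123, 77.7 and 120 in the arrested libraries. There arrested library 1 (122.5) exceeded competent library 3 (121.9), so the groups overlapped.

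Cldn1, the claudin of the skin barrier, lies on chromosome 16 from 26356728 to 26371927 on the minus strand and was the lowest member. It measured 2.5, 2.70 and 4.15 FPKM in the control libraries, 3.50, 2.27 and 2.27 FPKM in the competent libraries, and 6.86, 6.50 and 3.03 FPKM in the arrested libraries. Arrested libraries 1 and 2 were above the other 7. Arrested minus competent was 0.77 ± 0.32 (SE) by limma (unadjusted p = 0.0425, adjusted p = 0.440). These values rest on 83 to 321 fragments per library, the fewest of the members with 1 transcript in use.

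Of 16 other claudins listed, 7 were tested, and 0 had an unadjusted p under 0.05 in any comparison by limma. Cldn25 and Cldn23 had the highest means, at 61.3 and 44.6 FPKM, but by exon coverage Cldn25 (27.0) lay below Cldn23 (44.6). Cldn5, the claudin of endothelium, ranged from 7.62 FPKM in arrested library 1 to 18.2 FPKM in arrested library 2, the same 2 libraries in which the summed endothelium markers, of which it is one, were lowest and highest. Cldn2, a pore-forming claudin, was listed at 0 in 7 of 9 libraries, but by exon coverage it was above 0 in 8 of 9, at up to 1.54. Cldn14 was at 0 in every library on both scales. Cldn8 had the smallest unadjusted p of the list in arrested minus competent, 0.72 ± 0.35 (SE; limma, unadjusted p = 0.0719, adjusted p = 0.507), with 16.1, 10.2 and 5.24 FPKM in the arrested and 4.51 to 6.77 FPKM in the competent libraries.

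Ocln encodes occludin, the second kind of membrane protein in the strands (chromosome 13, 101266462 to 101322673, minus strand). It measured 26.6, 27.7 and 21.8 FPKM in the control libraries, 27.9, 16.4 and 21.1 FPKM in the competent libraries, and 36.6, 25.5 and 21.6 FPKM in the arrested libraries. All groups overlapped. The differences were -0.23 (95% interval -0.80 to 0.34) for competent minus control and 0.34 (-0.23 to 0.91) for arrested minus competent. Its transcripts ENSMUST00000022140, ENSMUST00000160859 and ENSMUST00000069756 were above 0 in all 9 libraries, with 53.0%, 31.8% and 15.2% of the gene's FPKM.

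Tjp1 encodes the scaffold ZO-1 (chromosome 7, 72441051 to 72516125, minus strand), and here the way of summing decided what was seen. Its annotated sum was 4.46, 6.66 and 10.5 FPKM in the control libraries, 8.56, 11.97 and 10.7 FPKM in the competent libraries, and 14, 12.2 and 6.23 FPKM in the arrested libraries. Control libraries 1 and 2 and arrested library 3 were lowest, the 3 libraries in which ENSMUST00000102592 was listed at 0. In all libraries, transcripts that the authors' assembly added to the locus held most of the summed FPKM, which with them was 27.0 to 45.3. By exon coverage the share of the assembled transcripts was not computed. Exon coverage, including those assembled transcripts, was 19.3, 20.1 and 18.3 in the control libraries, 19.1, 21.6 and 19.9 in the competent libraries, and 18.0, 21.7 and 22.6 in the arrested libraries. On that scale Tjp1 had the smallest spread over the 9 libraries of the 10 members, and arrested minus control was 0.10 ± 0.11 (SE) where the annotated sum gave 0.53 ± 0.35 (SE).

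**Figure D3:**
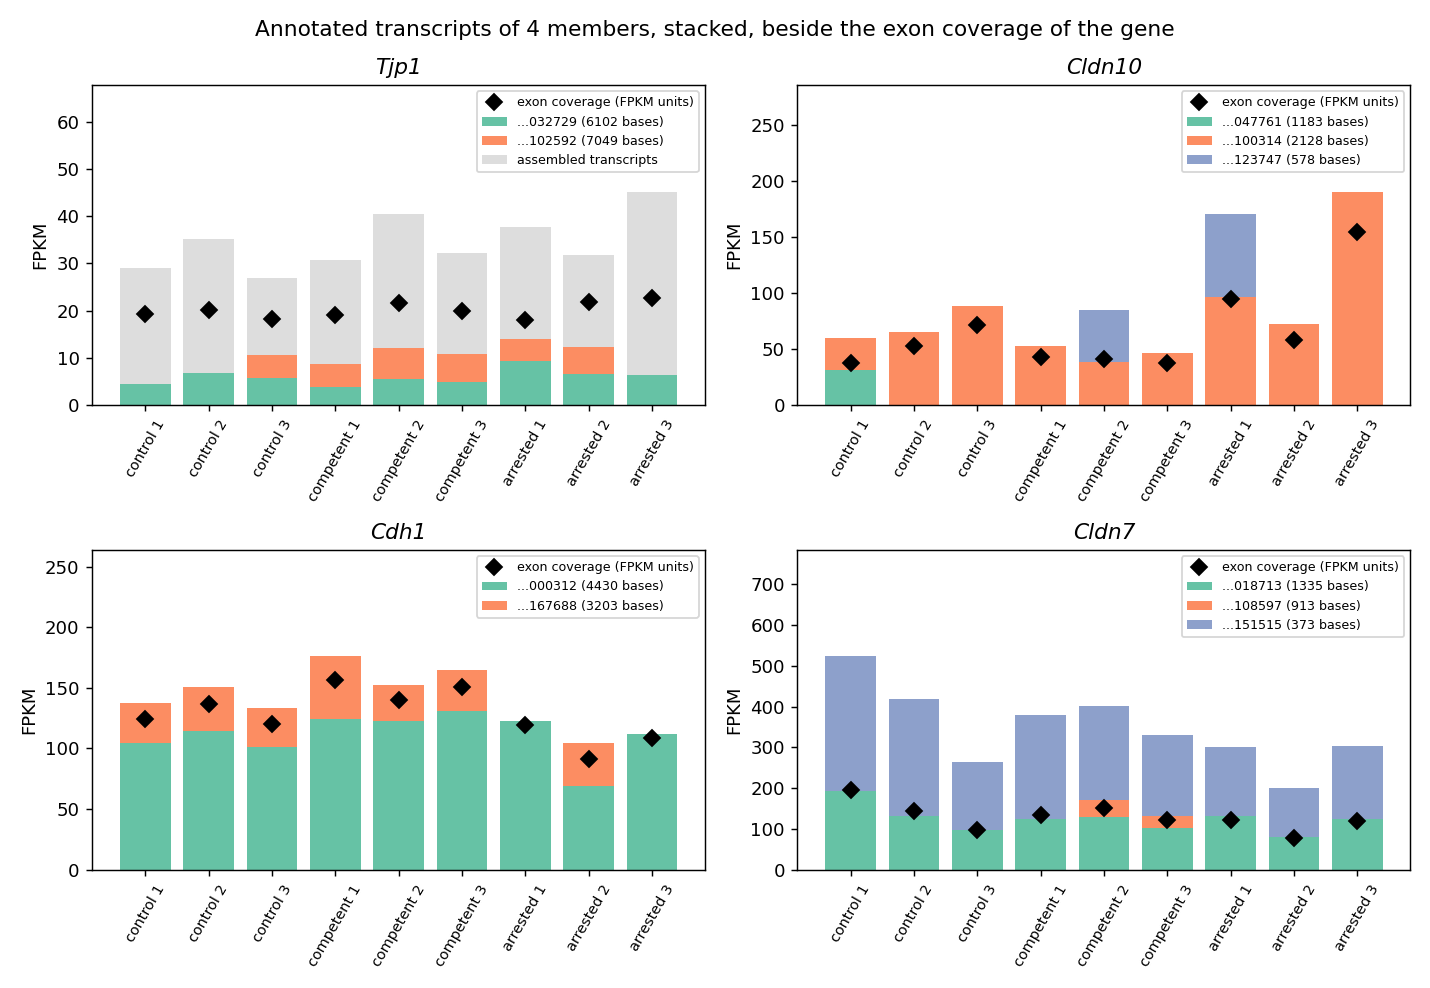
FPKM of the annotated transcripts of Tjp1, Cldn10, Cdh1 and Cldn7 in each library (stacked bars, y axis from 0, legend by the last digits of the transcript identifier and its length), with transcripts of the authors' assembly in grey for Tjp1 and the exon coverage of the gene in FPKM units as diamonds. The bars of Tjp1 vary with the division among transcripts while its diamonds stay between 18.0 and 22.6, and the shorter Cdh1 transcript is listed at 0 in arrested libraries 1 and 3.

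Of 96 other junction genes listed, 1 (Cldnd1) was not found by name and 72 were tested. By limma, 0 passed the adjusted threshold in any comparison. In arrested minus competent 33 were higher and 39 lower in estimate, with a median of -0.04 on the log2 scale. At an unadjusted p under 0.05 there were 3 higher and 5 lower genes, 8 of 72, beside 10.9% of all genes. In the comparisons with control there were 3 of 72 such genes for competent and 2 of 72 for arrested medium, all lower. Of all genes, 5.18% and 5.27% had such a p in either direction.

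Tjp3 had the smallest unadjusted p among them. It encodes ZO-3, a scaffold of epithelial tight junctions related to ZO-1. It measured 76.5, 73.0 and 79.6 FPKM in the control libraries, 85.0, 81.1 and 84.1 FPKM in the competent libraries, and 59.0, 44.7 and 28.8 FPKM in the arrested libraries. The 3 groups did not overlap, in the order seen for Cdh1 and Gjb2. The share of all genes with this order was not computed. As with Gjb2, arrested library 1 was the highest and library 3 the lowest of the arrested group. The difference was -0.96 ± 0.23 (SE) for arrested minus competent (limma, unadjusted p = 0.00286, adjusted p = 0.260) and -0.83 for arrested minus control (limma, adjusted p = 0.904).

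In the same list, Mpdz (MUPP1) and Jam2 (JAM-B), lay higher in the arrested than in the competent group in estimate, by 1.17 and 0.83 on the log2 scale (limma, adjusted p = 0.386 and 0.410). For Mpdz the mean exon coverage was 1.45 in the arrested and 1.73 in the competent group, the opposite order. Cgn (cingulin), which links ZO proteins to actin, had competent minus control of -0.47 (limma, unadjusted p = 0.0147, adjusted p = 0.880), with all 3 competent libraries (16.9 to 22.1 FPKM) below all 3 control libraries (25.1 to 26.8 FPKM). Cxadr, a cell adhesion protein of tight junctions, was listed at 0 in 8 of 9 libraries as an annotated sum, but its exon coverage was 9.86 to 19.0 in all 9, so those zeros do not mean absence.

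Desmosomes, which anchor keratin filaments, held 9 tested genes of 13 listed, with a median of -0.40 in arrested minus competent against -0.01 for all genes. Marker lists moved in both directions in this comparison. Lower estimates were found for 10 of 13 epithelium markers (median -0.16) and for 7 of 7 tested smooth muscle markers (median -0.76). Leukocyte (median -0.20) and mesothelium markers (-0.24) also leaned lower. Medians were above 0 for stromal fibroblast (0.20), endothelium (0.20), uterus-defining (0.37), urothelium (0.60) and adipocyte markers (1.10). Of 13 epithelium markers, 2 (Esrp1 and Prom1) had arrested libraries below all competent libraries, as 8.75% of all genes did. The part of these lists in the junction genes' differences was tested only for the members, relative to the epithelium markers. Pkp4 (plakophilin 4) measured 34.5, 39.7 and 37.2 FPKM in the competent libraries and 25.9, 24.6 and 18.0 FPKM in the arrested libraries. The control libraries, at 32.0, 33.7 and 24.2 FPKM, lay in part between them. The difference between the 2 media was -0.70 ± 0.19 (SE; limma, unadjusted p = 0.00544, adjusted p = 0.291). Dsc2 (desmocollin 2) differed by -0.75 (limma, adjusted p = 0.382) and Dsg2 (desmoglein 2) by -0.40 (limma, adjusted p = 0.417). In both, the arrested libraries lay below the competent libraries, while the control libraries overlapped both groups. In all, 4 of 9 desmosome genes had arrested libraries below all competent libraries, beside 8.75% of all genes. Ppl (periplakin) went the other way, at 0.53 (limma, adjusted p = 0.421). Its mean was 14.8 FPKM in the competent group, against 22.9 FPKM in the control and 21.7 FPKM in the arrested group, so the competent group was the one apart.

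The apical polarity genes, which place the junctions at the apical end of the cell, were all tested, 14 of 14, and 0 had an unadjusted p under 0.05 in arrested minus competent by limma. Pard3 had competent minus control of -0.62 (limma, unadjusted p = 0.0425, adjusted p = 0.944). By mean exon coverage Pard3 was 3.88 in the control and 3.56 in the competent group, a smaller gap than the 18.7 and 11.9 FPKM of its annotated sums.

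**Figure D4:**
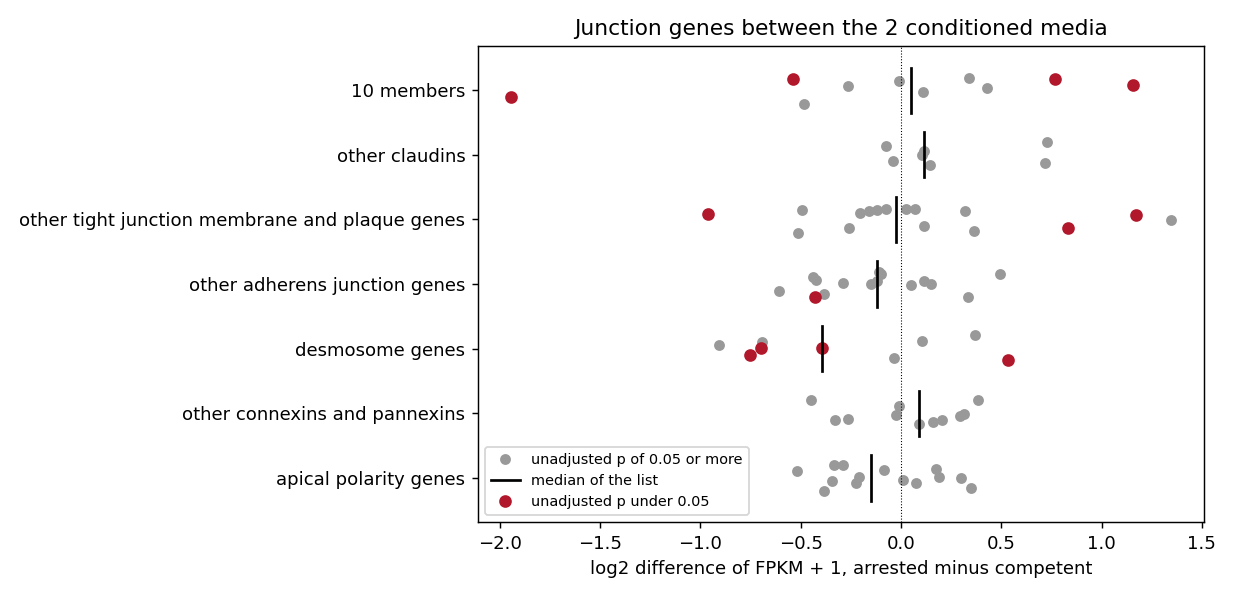
Difference in log2(FPKM + 1), arrested minus competent (x axis), of the 10 members and of the tested genes of 6 other junction lists; each point is 1 gene (vertical scatter has no meaning), red where the unadjusted p is under 0.05, and the black bar is the list's median. Gjb2 is the point farthest to the left at -1.94, and the desmosome genes have the lowest median at -0.40.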

How the data were processed

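The 9 RNA-seq libraries of mouse uterus, 3 per group, were prepared with the Illumina TruSeq RNA kit from 1 ug of total RNA, per the labels' protocols. Bowtie 0.12.2, Cufflinks and the build mm9 are named in the submitters' processing notes; for Cufflinks a version, and for the annotation a release, were not given in the sources used. Deposited transcript tables hold FPKM with the authors' lower and upper bounds and a read coverage signal per transcript, which the authors computed for 92839 annotated transcripts per library and for assembled ones. Between 73.4% and 74.7% of the annotated transcripts are listed at 0.

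Annotated transcripts were mapped to genes through GENCODE vM1 (NCBIM37), and FPKM were summed per gene. All 9 libraries entered 1 fit of log2(FPKM + 1) on group in limma 3.58.1 (R 4.3.3) with a mean trend. Genes of mean 1 FPKM or more were tested (8.07 degrees of freedom in total), with Benjamini-Hochberg adjustment and a threshold of 0.05. The fit was tested on simulated data. Intervals are 95% confidence intervals, and a fold on the log2(FPKM + 1) scale understates the change of low genes. Exon coverage is the deposited coverage, rescaled to FPKM units, averaged over the exon bases of the gene with assembled transcripts included; it was added after the data were seen. Fragment numbers were recovered from the authors' bounds, and 99.5% to 99.7% of intervals gave whole fragments within 0.02; they cover counting error only. Across genes, r was 0.853 to 0.902 for libraries of the same group and 0.860 to 0.900 for libraries of different groups, and no pair was identical.

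The members and gene lists were chosen with earlier results of these data known. Named were all 10 members, and of the other junction lists, for each comparison, genes past the threshold and up to 2 per list with the smallest unadjusted p. Of these, all with an unadjusted p under 0.05 are named, and of the rest only some; other genes named for their level, such as the catenins, Gjb6, Cldn5 and Cldn2, were chosen after their values were seen. Of marker lists, genes of highest level and those at 0 were named. Esrp1 and Prom1 were named apart from that rule, after their values were seen, for groups that did not overlap. Printed promoters were read from NCBIM37; motif counts over all promoters come from RefSeq (GRCm38.p6), which holds 9 of the 10 members and not Cdh1. Exon tables repeat the transcript values and gave exon positions only. Alternatives were other pseudocounts, filters, transcript sets, scalings and fits, and leaving out each library.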

Additional observations from a re-analysis of the deposited data

How the results depend on the processing

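No member and no other listed junction gene passed the adjusted threshold under any of the 22 alternatives, among them 2 other filters, another pseudocount, other moderation, other scalings, other transcript sets and leaving out each library in turn. Of 657 recomputed member differences, 27 had the opposite sign to the reported value, in 12 of 30 differences. Gjb2, Cdh1 and Cldn10 kept their sign in all 3 comparisons under every alternative run. Gjb2 in arrested minus competent ranged from -1.98 to -1.80 over the settings, and from -2.55 to -1.27 when 1 library was left out, with a lowest adjusted p of 0.108. Cdh1 ranged from -0.54 to -0.35 and, with 1 library left out, from -0.60 to -0.48, with a lowest adjusted p of 0.155. Cldn10 reached an adjusted p of 0.105, without arrested library 2. With a minimum mean of 5 FPKM, Cldn1 was not tested.

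Tjp1 turned sign most. Its arrested minus competent value of -0.007 became 0.143 with assembled transcripts added, 0.561 on the transcript of highest mean, 0.003 with median-ratio size factors, 0.136 relative to epithelium markers and 0.034 by exon coverage. Its competent minus control value of 0.53 became -0.214 on the transcript of highest mean, as Ocln in arrested minus control became -0.027. With size factors Cldn3 in competent minus control became 0.006, and relative to epithelium markers Gja1 in competent minus control became -0.060. The cause of these turns was not tested, apart from the division among Tjp1 transcripts shown above.

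Leaving out 1 library turned some small differences. For competent minus control the ranges were -0.311 to 0.015 for Cldn1, -0.095 to 0.071 for Cldn3, -0.340 to 0.151 for Cldn7 and -0.101 to 0.12 for Gja1. For arrested minus control they were -0.127 to 0.389 for Cldn3, -0.310 to 0.152 for Cldn4, -0.102 to 0.266 for Ocln and -0.525 to 0.052 for Gja1. For arrested minus competent they were -0.112 to 0.404 for Cldn3, -0.213 to 0.314 for Tjp1 and -0.526 to 0.052 for Gja1.

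Replicate numbers are shared between the groups. Of same-numbered pairs, 0 of 9 had deviations from the group means correlated over 0.1 (-0.052 to 0.096). Pairs of different number and group ran from -0.094 to 0.082. With 3 libraries per group, these values cannot settle whether the numbers mark a pairing. With the replicate number as a block, 0 members passed in each comparison, and over all genes 1, 5 and 4 passed, where 6, 7 and 18 passed without it. In arrested minus competent, the count over all genes was 58 by exon coverage and 33 with only the 2 groups in the fit. With 3 libraries per group, the interval of Gjb2 spans over 2 log2 units, and depth limits Cldn1 most of the members with 1 transcript in use (83 to 321 fragments).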
